A study of Mus musculus with 12 samples.

Results

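The 38 genes described here encode the protein-folding machinery of the endoplasmic reticulum (ER) and the parts of the unfolded protein response that control it: chaperones, disulfide isomerases and oxidases, DnaJ cochaperones, degradation factors, and the IRE1 and ATF6 arms. They were taken by gene symbol from the 54446 genes of a table of raw read counts, and all 38 symbols were found there. RNA had been sequenced from NIH3T3 cells, a mouse embryonic fibroblast line. It was taken from wild-type cells and from ΔN-VEGF cells (genotype "dNVEGF deletion" in the labels), each in normoxia and in hypoxia, with 3 samples in each of the 4 groups. Hypoxia was a chamber below 0.2% oxygen for 16 h. ΔN-VEGF cells descend from the same line: Cas9, guide RNAs and donor cassettes had replaced the N-VEGF coding part of Vegfa on both alleles, and the reporter cassette was later removed with a retrovirus carrying VCre recombinase and cell sorting. Single clones resistant to puromycin and hygromycin had been picked before that removal. ΔN-VEGF cells therefore also went through transfection, drug selection, cloning, infection, sorting and passages that the wild-type cells did not. What part this history has in the differences between the lines was not tested. Which VCre-treated cells were sequenced is not given in the sources used here. Nothing in the labels says whether the 3 samples of a group came from separate cultures, so the p-values below measure the spread between these samples, which may be technical.

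Secreted and membrane proteins fold in the ER with the help of chaperones, and disulfide bonds are made there by isomerases that the ERO1 oxidases recharge with electrons passed on to oxygen. When unfolded proteins build up, the sensors IRE1, ATF6 and PERK are set off: IRE1 splices the mRNA of Xbp1, ATF6 is cut to release a transcription factor, and PERK slows translation while favouring that of Atf4. XBP1 and ATF6 switch on chaperones and the factors of ER-associated degradation (ERAD), which carries misfolded proteins back to the cytosol for the proteasome. Fibroblasts secrete large amounts of collagen and other matrix proteins and use this machinery heavily.

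The promoters of these genes are known for short control elements, shown here because they are what some of the members share beyond their function. The ER stress response element (ERSE), searched as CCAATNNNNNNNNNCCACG, the related ERSE-II (ATTGGNCCACG) and the unfolded protein response element (UPRE, TGACGTGG, which contains the letters ACGTG of the hypoxia response element core) were looked for on both strands of RefSeq promoters of mouse assembly GRCm38.p6. Each promoter window held 250 bases before and 50 after a gene's start, and 33 of the 38 members had one, 2 of them through a synonym. The ERSE stood in the windows of 10 of the 33 members (30.3%) and in 0.137% of all 27025 genes with a window (0.119% of 32851 windows). The ERSE-II stood in those of 2 members (6.06%) and 0.0444% of all genes (0.0365% of windows), and the UPRE in those of 2 members (6.06%) and 0.714% of all genes (0.676% of windows). A match describes letters and does not show that a factor bound there, and the absence of a match says only that these letters are not in the window. The promoter of Hspa5, the gene of the chaperone BiP, lies at chr2:34771840-34772139 on the plus strand, with the fixed letters of its 1 exact ERSE in capitals:
Hspa5 promoter: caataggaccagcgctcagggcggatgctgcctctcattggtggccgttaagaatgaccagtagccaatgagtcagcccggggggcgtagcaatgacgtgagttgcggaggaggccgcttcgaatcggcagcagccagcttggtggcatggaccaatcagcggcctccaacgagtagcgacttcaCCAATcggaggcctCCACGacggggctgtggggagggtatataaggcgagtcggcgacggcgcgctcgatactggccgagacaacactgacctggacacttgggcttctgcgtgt
The ERSE of the other members follows with 5 bases on either side, 5′ to 3′ along the strand on which it reads as written above, the fixed letters again in capitals:
Hsp90b1, chr10:86705528-86705556, plus strand: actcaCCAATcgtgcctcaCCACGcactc
Hsp90b1, chr10:86705633-86705661, minus strand: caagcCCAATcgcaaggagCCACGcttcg
Calr, chr8:84847070-84847098, plus strand: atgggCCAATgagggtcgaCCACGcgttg
Canx, chr11:50325795-50325823, minus strand: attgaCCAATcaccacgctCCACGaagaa
Pdia6, chr12:17266486-17266514, plus strand: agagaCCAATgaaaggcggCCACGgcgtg
Ero1lb, chr13:12565677-12565705, minus strand: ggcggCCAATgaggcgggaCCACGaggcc
Dnajc3, chr14:118937822-118937850, plus strand: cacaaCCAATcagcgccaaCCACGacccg
Creld2, chr15:88819515-88819543, minus strand: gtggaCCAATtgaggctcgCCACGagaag
Syvn1, chr19:6046527-6046555, plus strand: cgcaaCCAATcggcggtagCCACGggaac
Derl3, chr10:75893237-75893265, minus strand: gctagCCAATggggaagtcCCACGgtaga
Hsp90b1 had 2 of them. The ERSE-II windows were those of an ERAD factor and of a DnaJ cochaperone, and the UPRE windows those of a COPII coat protein and of a disulfide isomerase:
Herpud1, chr8:94386372-94386392, plus strand: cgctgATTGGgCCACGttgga
Dnajb11, chr16:22857847-22857867, plus strand: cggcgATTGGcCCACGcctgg
Sec24d, chr3:123267465-123267482, plus strand: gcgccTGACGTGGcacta
Txndc5, chr13:38528040-38528057, minus strand: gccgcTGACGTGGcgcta

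Counts on genes came to 30519052 to 43056690 per sample, and 14724 genes had enough counts to be tested. Levels are given as CPM, the usual read-depth unit, on library sizes scaled by TMM in edgeR, always in the order of samples 1, 2 and 3. Sample 2 of wild-type normoxia stood apart: its log2 CPM correlated at 0.961 and 0.9618 with samples 1 and 3, which correlated at 0.9987 with each other. Sample 2 of ΔN-VEGF normoxia correlated at 0.9905 with both of its partners. The 7 fibroblast markers summed to 16925 to 42741 CPM over the 12 samples, and 4 epithelial markers to 0.355 to 2.42 CPM, with Epcam at 0 in every sample. The 4 leukocyte markers summed to 2.84 to 6.68 CPM, nearly all from Cd68. The 3 endothelial markers summed to 1.81 to 8.05 CPM in 3 groups and to 20.3 to 25.1 CPM in hypoxic ΔN-VEGF cells, most of it from Cdh5. The fibroblast sum was also highest in that group, at 40637 to 42741 CPM, carried by Vim, Fn1, Col1a1 and Col1a2. The other markers of that list had lower means there than in either normoxic group, with Pdgfra at 196 CPM against 668 in wild-type and 424 in ΔN-VEGF normoxia, Thy1 at 198 against 303 and 441, and Pdgfrb at 30.1 against 106 and 81.8. What part the marker levels have in the results below was not tested. In bulk RNA, fewer cells of a type and less RNA per cell cannot be told apart. All 8 genes listed as a check of hypoxia rose in both lines. Among them Bnip3, a mitophagy receptor, rose by 4.45 and 4.54, and Ankrd37 by 5.42 and 4.67 (log2; adjusted p = 1.7e-09, 6.4e-10, 1.1e-08 and 1.6e-08). Vegfa measured 86.2, 39.4 and 82.6 CPM in wild-type normoxia, 277, 272 and 291 CPM in wild-type hypoxia, 37.3, 34.2 and 35.5 CPM in ΔN-VEGF normoxia and 437, 419 and 430.3 CPM in ΔN-VEGF hypoxia. Its count covers the whole gene, including the parts that the edit left in place, and so does not check the deletion.

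Most of the ER genes had higher levels in hypoxia. The 38 genes took 0.869%, 0.963% and 0.877% of all counts in wild-type normoxia and 2.89%, 2.65% and 2.86% in wild-type hypoxia. The same genes in ΔN-VEGF cells took 0.931%, 1.07% and 0.940% in normoxia and 3.80%, 3.30% and 3.93% in hypoxia. The hypoxic samples of each line lay above all of its normoxic samples, and hypoxic ΔN-VEGF samples above hypoxic wild-type ones. The share of mitochondrial genes moved with the same groups, from 2.62% to 3.55% in the normoxic samples to 1.62% to 2.08% in wild-type hypoxia and 1.53% to 1.63% in ΔN-VEGF hypoxia, and its part in the results was not tested. Much of the share of the 38 genes fell on P4hb, Hspa5, Calr, Hsp90b1 and Ero1l. Without these 5 genes, named after their values were seen, the share was 0.454% to 0.466% in wild-type normoxia, 0.766% to 0.833% in wild-type hypoxia, 0.431% to 0.470% in ΔN-VEGF normoxia and 0.908% to 1.08% in ΔN-VEGF hypoxia.

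Gene by gene, 37 of the 38 members were tested in 1 edgeR model of all 12 samples, by its quasi-likelihood test, with p-values adjusted by Benjamini-Hochberg across the 14724 genes. The comparisons below share groups of these samples and are not independent of each other. A gene was called at an adjusted p below 0.05. The member left out by the filter on low counts was Derl3, a derlin paralog, which had 1 to 6 counts in any sample. In wild-type cells 32 of 37 members were higher in hypoxia and 0 lower, where 18.2% of all tested genes were higher and 18.3% lower. In ΔN-VEGF cells 34 were higher and 0 lower, against 26.9% and 26.4% of all tested genes. At an unadjusted p below 0.05, 0 members were lower in either line, where 24% and 29.6% of all tested genes were, and DESeq2 also called 0 lower, against 17.9% and 20.8% of its genes. With a fold of at least 2 as a further condition, 21 members passed in wild-type cells (9.17% of all tested genes) and 30 in ΔN-VEGF cells (14.6%). The 3 hypoxic samples lay above the 3 normoxic ones, with no overlap, for 32 members in wild-type cells (23.2% of all tested genes) and for 35 in ΔN-VEGF cells (34.9%). The median log2 difference over the 37 members was 1.13 in wild-type cells, where that over all tested genes was -0.07, and 1.82 in ΔN-VEGF cells, where it was -0.01. Scaling by total counts in place of TMM moved the median of all genes to -0.30 and -0.41, with 12.8% of genes higher and 32.7% lower in wild-type cells and 15.3% and 44.5% in ΔN-VEGF cells. The members' medians were then 0.91 and 1.42, and 31 members were called higher in each line.

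**Figure D1:**
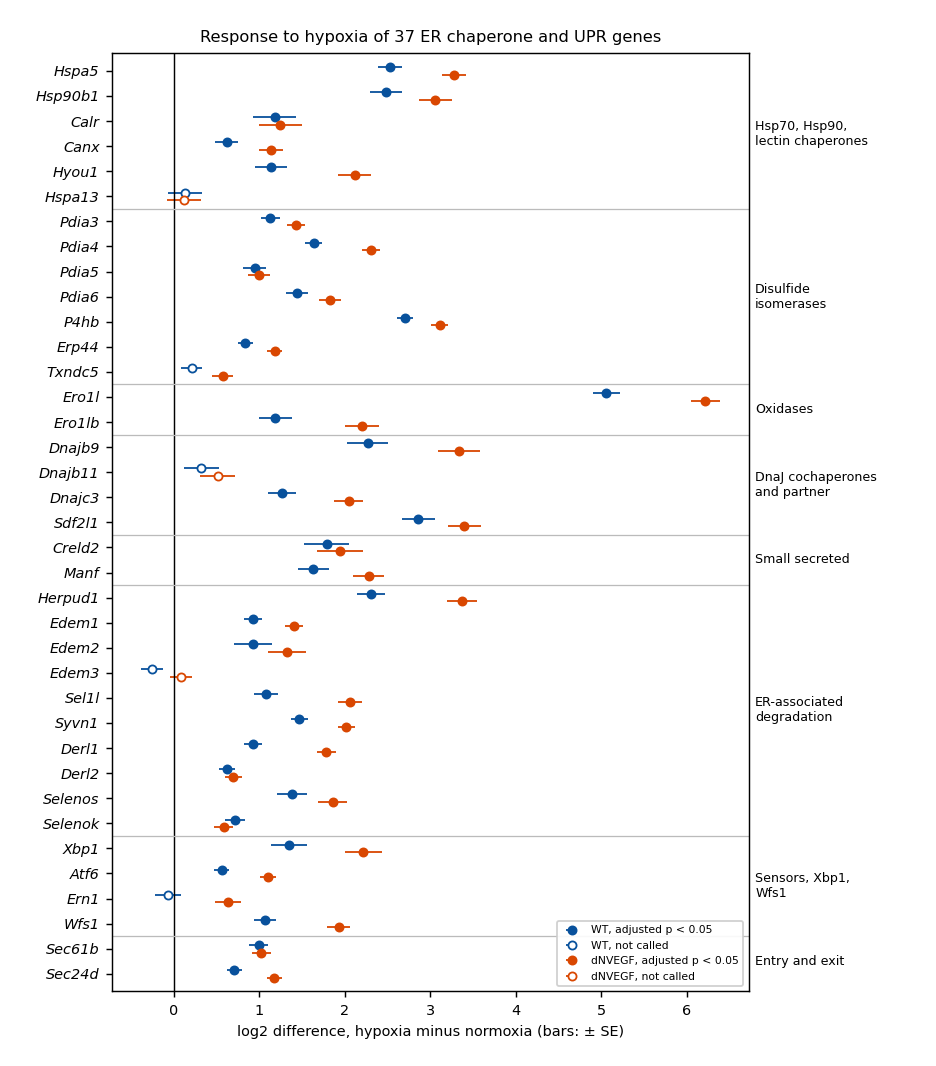
Log2 difference between hypoxia and normoxia for 37 ER genes grouped by role (x axis, ± SE), in wild-type (blue) and ΔN-VEGF cells (orange); filled points passed an adjusted p below 0.05. Points lie right of 0 for nearly all genes, from near 0 for Hspa13 and Edem3 to 5.06 and 6.22 for Ero1l.

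Among the 6 Hsp70, Hsp90 and lectin chaperones, 5 rose in each line. Hspa5 encodes BiP, the ER Hsp70 that binds unfolded chains and holds the sensors inactive. It measured 636, 759 and 664 CPM in wild-type normoxia, 4166, 3536 and 4149.5 CPM in wild-type hypoxia, 559, 682 and 576 CPM in ΔN-VEGF normoxia and 6262, 4883 and 6462 CPM in ΔN-VEGF hypoxia. The groups did not overlap between oxygen conditions, and in hypoxia every ΔN-VEGF sample lay above every wild-type sample. The rise came to 2.52 ± 0.14 (log2 ± SE, 5.76-fold, adjusted p = 2.9e-07) in wild-type and 3.28 ± 0.14 (9.69-fold, adjusted p = 3.0e-08) in ΔN-VEGF cells. Hsp90b1 encodes GRP94, the ER Hsp90 that folds integrins and other client proteins. Its level went from 414, 646 and 429.9 to 2946, 2439.7 and 2950.1 CPM in wild-type cells (2.48 ± 0.19, adjusted p = 2.8e-06). In ΔN-VEGF cells it went from 529.8, 650.4 and 549 to 5022, 4033 and 5352 CPM (3.06 ± 0.19, adjusted p = 3.7e-07). About 10.3% of the exonic length of Hsp90b1 overlaps a gene on the other strand and 5.4% genes on its own strand, and the strand setting of the counting is not given in the sources used here. The lectin chaperones calreticulin and calnexin, which hold glycoproteins while they fold, had smaller differences. Calr stood at 1136, 2318 and 1102 CPM in wild-type normoxia, where sample 2 alone lay within the range of the ΔN-VEGF normoxic samples, and at 3476, 3419.8 and 3421 CPM in hypoxia (1.18 ± 0.25, adjusted p = 0.0037). In ΔN-VEGF cells Calr rose by 1.25 ± 0.25 (adjusted p = 0.0016) from 2074, 2814 and 2063 to 5535, 5109 and 5844 CPM. Canx rose by 0.62 ± 0.14 (adjusted p = 0.0044) in wild-type and by 1.14 ± 0.14 (adjusted p = 4.7e-05) in ΔN-VEGF cells. Hyou1, the Hsp110-type nucleotide exchange factor of BiP, rose by 1.14 ± 0.19 (adjusted p = 7.1e-04) and 2.11 ± 0.19 (adjusted p = 5.8e-06). Hspa13, a microsomal Hsp70 relative, passed in neither line (0.14 ± 0.20 and 0.12 ± 0.20, adjusted p = 0.62 and 0.63), with 23.9 to 33.8 CPM in wild-type normoxia and 26.7 to 32.7 CPM in wild-type hypoxia. Without both normoxic samples numbered 2 it was called higher in both lines (0.32, adjusted p = 0.0026, and 0.38, adjusted p = 5.5e-04).

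The disulfide isomerases, which form and shuffle disulfide bonds in new proteins, were called higher in 6 of 7 cases for wild type and in 7 of 7 for the ΔN-VEGF line. P4hb encodes protein disulfide isomerase itself, which is also the beta subunit of collagen prolyl 4-hydroxylase. It measured 1145, 1236 and 1112 CPM in wild-type normoxia and 7527, 7742 and 7417 CPM in wild-type hypoxia, a rise of 2.70 ± 0.09 (6.50-fold, adjusted p = 9.5e-09). In the ΔN-VEGF line it went from 1263, 1449 and 1228 CPM to 11486, 11015 and 11473 CPM (3.11 ± 0.10, 8.62-fold, adjusted p = 2.4e-09). Hypoxic samples of both lines stood far above normoxic ones, with little spread within a group. Pdia4 (ERp72) went from 188, 199 and 185 to 612, 561 and 604 CPM in wild-type cells (1.64 ± 0.10, adjusted p = 5.9e-07). In ΔN-VEGF cells Pdia4 went from 226, 229.7 and 237 to 1217, 979.8 and 1231 CPM (2.31 ± 0.10, adjusted p = 3.1e-08). Pdia6, which also acts on the sensor IRE1, rose by 1.45 ± 0.13 (adjusted p = 9.2e-06) and 1.82 ± 0.13 (adjusted p = 9.3e-07). Pdia3 (ERp57), the partner of calnexin and calreticulin, rose by 1.13 ± 0.11 (adjusted p = 1.7e-05) and 1.43 ± 0.11 (adjusted p = 1.6e-06). Smaller rises were those of Pdia5 (0.94 and 1.0, adjusted p = 2.1e-04 and 7.7e-05) and of Erp44, which retains ERO1 and unassembled secretory proteins (0.84 and 1.18, adjusted p = 3.0e-05 and 1.3e-06). Txndc5 measured 491, 587 and 449.9 CPM in wild-type normoxia and 573, 619 and 577 CPM in wild-type hypoxia, groups that overlap (0.21 ± 0.12, adjusted p = 0.2, and 0.33 with adjusted p = 0.014 without normoxic sample 2). In ΔN-VEGF cells Txndc5 rose by 0.57 ± 0.12 (adjusted p = 0.0022), a call that total-count scaling ended (0.17, adjusted p = 0.11). About 11.9% of the exonic length of Txndc5 overlaps genes on the other strand.

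The 2 ERO1 oxidases, which recharge these isomerases, both rose, and Ero1l (ERO1 alpha) moved most of all members in both lines. Ero1l measured 90.4, 68.6 and 96.7 CPM in wild-type normoxia and 3003, 2535 and 2974 CPM in wild-type hypoxia. The gene in ΔN-VEGF cells measured 58.2, 59.0 and 63.0 CPM in normoxia and 4631, 3941 and 4829 CPM in hypoxia. The ΔN-VEGF samples lay below all wild-type samples in normoxia and above all of them in hypoxia. The rise was 5.06 ± 0.16 (33.3-fold, adjusted p = 5.0e-09) in wild-type and 6.22 ± 0.17 (74.3-fold, adjusted p = 1.1e-09) in ΔN-VEGF cells. Ero1lb (ERO1 beta) was scarce, with 5.55 to 9.19 CPM in wild-type normoxia and 18.4 to 26.3 CPM in ΔN-VEGF hypoxia. It rose by 1.19 ± 0.19 (adjusted p = 6.7e-04) and 2.2 ± 0.2 (adjusted p = 5.6e-06).

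Of the DnaJ cochaperones of BiP and their partner Sdf2l1, 3 of 4 rose in each line. Dnajb9 (ERdj4), which helps BiP restrain IRE1, measured 8.72, 7.13 and 10.3 CPM in wild-type normoxia and 46.1, 35.3 and 44.6 CPM in wild-type hypoxia (2.27 ± 0.24, adjusted p = 3.0e-05). In ΔN-VEGF cells it measured 8.48, 15.6 and 8.89 CPM in normoxia and 113, 97.7 and 122 CPM in hypoxia (3.34 ± 0.25, adjusted p = 1.2e-06). The 3 hypoxic ΔN-VEGF samples lay above every other sample. Sdf2l1, which forms a complex with ERdj3 and BiP, rose by 2.86 ± 0.19 (7.26-fold, adjusted p = 1.1e-06) and 3.40 ± 0.19 (10.5-fold, adjusted p = 1.8e-07). Dnajc3 (p58IPK), a cochaperone known as an inhibitor of PERK, rose by 1.27 ± 0.16 (adjusted p = 1.3e-04) and 2.04 ± 0.17 (adjusted p = 2.4e-06). Dnajb11 (ERdj3), whose promoter window holds an ERSE-II, was near the threshold in the ΔN-VEGF line and passed in neither. It measured 75.6, 132 and 77.3 CPM in wild-type normoxia and 121, 114 and 121 CPM in wild-type hypoxia (0.32 ± 0.21, adjusted p = 0.24). In the ΔN-VEGF line it measured 96.8, 133 and 97.0 CPM in normoxia and 164, 136 and 167 CPM in hypoxia (0.51 ± 0.21, adjusted p = 0.055). In both lines the normoxic sample 2 was the highest of its group, and in wild-type cells it lay above all hypoxic samples. Without wild-type normoxic sample 2 the wild-type difference was 0.64 and was called (adjusted p = 0.0012), and without ΔN-VEGF normoxic sample 2 that of the ΔN-VEGF line was 0.68 (adjusted p = 0.031). The ΔN-VEGF response of Dnajb11 was called in 9 of 21 alternative fits, 3 of which kept all 12 samples.

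The small ER stress proteins Creld2 and Manf, which are made for the ER and can be secreted, rose in both lines. Creld2, an ER-resident folding factor with EGF-like repeats, went from 39.1, 74.9 and 34.9 to 172, 172 and 170.2 CPM in wild-type cells (1.79 ± 0.27, adjusted p = 3.8e-04). Its rise in ΔN-VEGF cells was 1.94 ± 0.27 (adjusted p = 1.2e-04). Manf, a protein that binds BiP and promotes survival of neurons, rose by 1.63 ± 0.18 (adjusted p = 4.8e-05) and 2.28 ± 0.19 (adjusted p = 2.5e-06). About 8.9% of the exonic length of Manf overlaps genes on the other strand.

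Of 11 ERAD factors, 10 were tested and 9 rose in each line. Herpud1, a membrane protein that organises the degradation complex, measured 76.8, 46.9 and 76.8 CPM in wild-type normoxia and 325, 329 and 337 CPM in wild-type hypoxia (2.31 ± 0.17, adjusted p = 2.0e-06). The gene in ΔN-VEGF cells measured 64.1, 69.9 and 59.8 CPM in normoxia and 683, 646 and 677 CPM in hypoxia (3.37 ± 0.17, adjusted p = 9.0e-08). All hypoxic ΔN-VEGF samples lay above all hypoxic wild-type samples. The ubiquitin ligase HRD1 (Syvn1) rose by 1.47 ± 0.10 (adjusted p = 1.0e-06) and 2.02 ± 0.10 (adjusted p = 6.1e-08). Its adaptor Sel1l went from 147, 103 and 147 to 287, 271 and 281 CPM in wild-type cells (1.08 ± 0.14, adjusted p = 1.4e-04). In ΔN-VEGF cells Sel1l went from 127, 131 and 129 to 572, 459 and 584 CPM (2.06 ± 0.14, adjusted p = 7.6e-07). Derlins are membrane proteins that thin the bilayer for extraction. Derl1 rose from 93.9, 73.6 and 94.9 to 171, 168 and 161 CPM in wild-type cells (0.93 ± 0.11, adjusted p = 5.9e-05) and from 70.4, 75.6 and 69.0 to 255, 231 and 256 CPM in ΔN-VEGF cells (1.79 ± 0.11, adjusted p = 2.9e-07). Derl2 rose by 0.63 ± 0.09 (adjusted p = 4.2e-04) and 0.70 ± 0.09 (adjusted p = 1.1e-04), while Derl3 stayed at 0.0193 to 0.139 CPM in all 12 samples, and its promoter window holds an exact ERSE. The EDEM proteins trim mannose from glycoproteins to mark them for degradation, and they differed among themselves. Edem1 rose by 0.93 ± 0.10 (adjusted p = 4.6e-05) and 1.41 ± 0.10 (adjusted p = 1.2e-06). Edem2 rose by 0.93 ± 0.22 (adjusted p = 0.0065, with 0.055 under total-count scaling and 0.054 in a fit of the 6 samples alone) and 1.33 ± 0.22 (adjusted p = 4.6e-04). Edem3 passed in neither line, with 30.9 to 39.4 CPM in wild-type normoxia and 32.2, 25.6 and 32.4 CPM in wild-type hypoxia (-0.25 ± 0.13, adjusted p = 0.16, with -0.49 and adjusted p = 0.031 under total-count scaling, and -0.34 and adjusted p = 0.023 without normoxic sample 2), and 0.09 ± 0.13 (adjusted p = 0.6) in ΔN-VEGF cells. The selenoproteins of the derlin complex rose as well, Selenos by 1.38 and 1.86 (adjusted p = 9.9e-05 and 6.8e-06) and Selenok by 0.72 and 0.58 (adjusted p = 6.3e-04 and 0.0015); the call on Selenok in ΔN-VEGF cells was lost under total-count scaling (0.18, adjusted p = 0.10).

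Of the sensors IRE1 and ATF6, the transcription factor gene Xbp1 and Wfs1, 3 of 4 rose in wild type and 4 of 4 in the ΔN-VEGF line. Atf6, which encodes the sensor that is cut in the Golgi, went from 127, 113 and 127 to 188, 169 and 186 CPM in wild-type cells (0.56 ± 0.09, adjusted p = 6.9e-04) and from 111, 114 and 117 to 250.1, 222 and 261 CPM in ΔN-VEGF cells (1.10 ± 0.09, adjusted p = 3.1e-06). Ern1, which encodes IRE1 alpha, measured 36.4, 26.7 and 38.3 CPM in wild-type normoxia and 30.4, 32.7 and 33.8 CPM in wild-type hypoxia, with overlapping groups (-0.06 ± 0.15, adjusted p = 0.77); without both normoxic samples numbered 2 it was called lower (-0.20, adjusted p = 0.015). In ΔN-VEGF cells it measured 19.5, 26.1 and 19.9 CPM in normoxia and 36.1, 31.2 and 34.4 CPM in hypoxia and rose by 0.64 ± 0.15 (adjusted p = 0.005, and 0.24 with adjusted p = 0.27 under total-count scaling). The hypoxic levels of Ern1 overlapped between the lines. Xbp1, whose mRNA IRE1 splices, went from 97.0, 50.6 and 100.4 to 210.0, 215 and 207 CPM in wild-type cells (1.35 ± 0.21, adjusted p = 4.7e-04) and from 77.1, 63.3 and 73.7 to 329.8, 332 and 334 CPM in ΔN-VEGF cells (2.22 ± 0.21, adjusted p = 8.6e-06). Counts per gene do not separate spliced from unspliced Xbp1. Wfs1, wolframin, an ER membrane protein linked to calcium handling and to ATF6 turnover, rose by 1.07 ± 0.13 (adjusted p = 9.2e-05) and 1.93 ± 0.13 (adjusted p = 7.3e-07). Entry into and exit from the ER were represented by Sec61b, a translocon subunit, and Sec24d, a cargo adaptor of COPII vesicles. Sec61b rose by 0.99 ± 0.11 (adjusted p = 4.6e-05) and 1.02 ± 0.11 (adjusted p = 2.0e-05). Sec24d rose by 0.71 ± 0.09 (adjusted p = 9.9e-05) and 1.17 ± 0.09 (adjusted p = 1.4e-06).

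**Figure D2:**
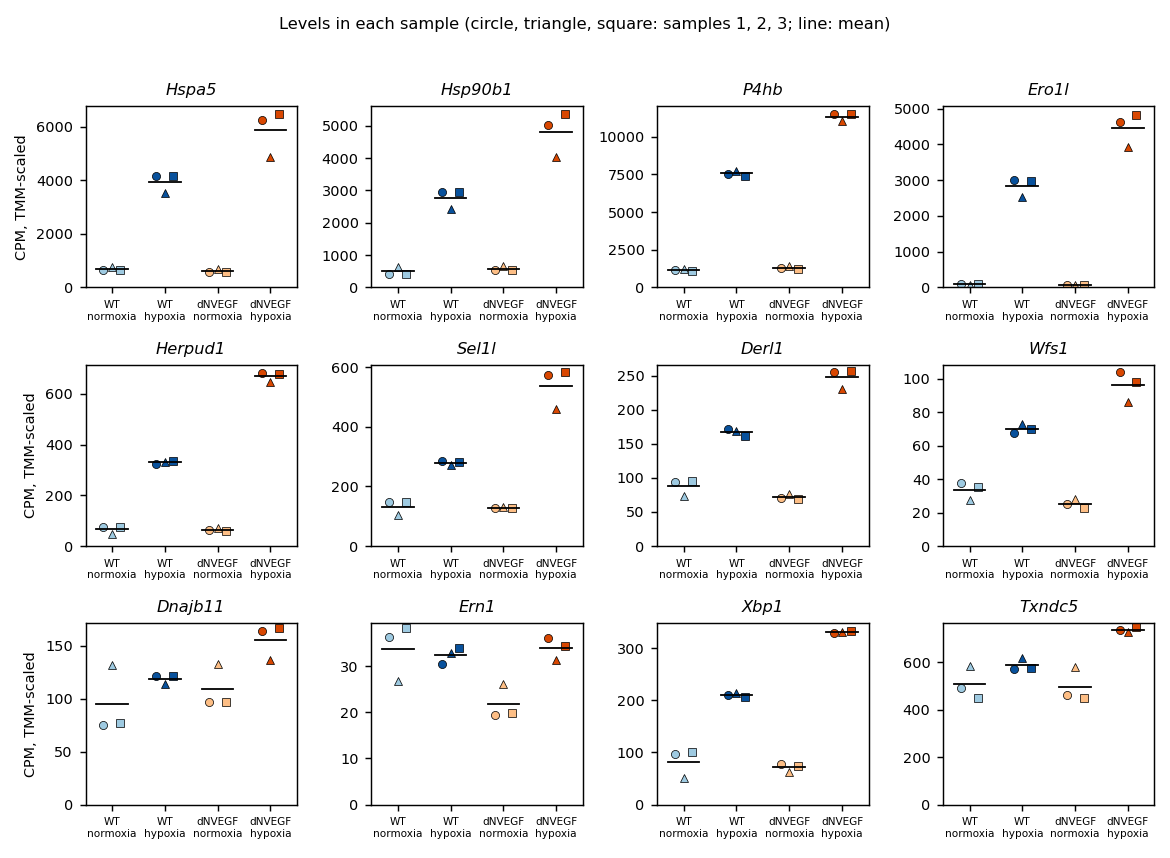
Level of 12 ER genes in each of the 12 samples (y axis, TMM-scaled CPM from 0; circles, triangles and squares are samples 1, 2 and 3 of a group, lines are means). Ero1l lies at 58.2 to 96.7 CPM in normoxia and at 2535 to 4829 CPM in hypoxia, and the Dnajb11 triangle of wild-type normoxia (132) lies above all 3 wild-type hypoxic points.

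Members with an ERSE in the window were not the only ones to rise. Of the 9 tested members with an ERSE, 9 rose in wild type (0.62 to 2.53, median 1.45) and 9 in the ΔN-VEGF line (1.14 to 3.28, median 2.02). Of the 19 members whose window held none of the 3 motifs, 17 rose in wild type, and the 19 had a median of 1.07 and ran from -0.25 to 5.06. In the ΔN-VEGF line 18 of these 19 rose (median 1.43). Of the 2 members with an ERSE-II, 1 rose in each line (Herpud1), and of the 2 with a UPRE, 1 rose in wild type (Sec24d) and 2 in the ΔN-VEGF line. Of all tested genes 18.2% were higher in wild type and 26.9% in the ΔN-VEGF line. The promoter groups are given as a description.

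Per kilobase of exon, the order of the members changed with oxygen. The length used was that of all annotated exons of a gene merged, which can exceed that of the transcript expressed. Levels of different genes can therefore be compared only roughly. In wild-type normoxia the highest levels were those of Calr, at 527 ± 241 CPM per kb (SD, n = 3), and P4hb, at 407 ± 22.4, which do not differ beyond their spread. Pdia3 (179 ± 18.1) and Hspa5 (162 ± 15.2) came next and lay within the spread of one another. In wild-type hypoxia P4hb led with 2643 ± 57.9 CPM per kb, ahead of Calr with 1194 ± 11.2, Hspa5 with 934 ± 84.9 and Hsp90b1 with 689 ± 72.8. Ero1l moved from rank 22 of 38 in wild-type normoxia (16.1 CPM per kb) to rank 5 in wild-type hypoxia (537), and from rank 30 (11.4) to rank 5 (845) in ΔN-VEGF cells. At the low end, Ern1, Hspa13 and Ero1lb stayed at or below 5 CPM per kb in all 4 groups, and Derl3 at or below 0.05.

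In normoxia few of these genes were called between the lines. In the comparison of ΔN-VEGF with wild-type cells, 0 of 37 members were higher and 1 was lower, where 1.39% of all tested genes were higher and 2.97% lower. At an unadjusted p below 0.05 the counts were 3 higher and 6 lower, among 6.17% and 12.8% of all tested genes. DESeq2 called 1 higher (Erp44) and 2 lower (Ern1 and Ero1l), among 2.69% and 5.47% of its genes, shares near those of the members. The member called lower was Ern1 (-0.63 ± 0.15, adjusted p = 0.045), whose ΔN-VEGF samples all lay below the wild-type samples. Same-numbered normoxic samples of the lines deviated together, and with the replicate number as a block Ern1 missed the threshold (-0.62, adjusted p = 0.072) while Ero1l passed it (-0.49, adjusted p = 0.029); without the block Ero1l was at -0.50 ± 0.14 (adjusted p = 0.062). Ern1 also lost its call under total-count scaling, without the filter on low counts, in a fit of the 6 samples alone, without both hypoxic samples numbered 2, and without any 1 of the samples other than the normoxic samples numbered 2. The median over the members was 0.02, and over all tested genes -0.025. With both normoxic samples numbered 2 left out, 10 members were higher and 9 lower, among 27.8% and 25.8% of all genes; leaving out sample 2 of wild-type normoxia alone gave the same counts. With both left out, the largest of these differences by size were Ern1 (-0.91), Calr (0.90) and Ero1lb (-0.82), and without the wild-type sample alone Calr led with 1.06.

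In hypoxia more than the background share of these genes differed between the lines. Of 37 members, 22 had a higher level in the ΔN-VEGF line and 0 a lower one, where 10.8% of all tested genes were higher and 9.36% lower. At an unadjusted p below 0.05, 26 were higher and 0 lower, among 16.8% and 16.3% of all tested genes, and DESeq2 called 22 and 0, among 12% and 9.81% of its genes. The median difference was 0.49 over the members and -0.01 over all tested genes. By role, the 22 were 4 of the 6 chaperones, 5 of 7 isomerases, 1 of 2 oxidases, 3 of 4 DnaJ cochaperones and partner, 0 of 2 small secreted proteins, 5 of 10 ERAD factors, 3 of the 4 sensors and signalling genes, and 1 of the 2 entry and exit genes. Dnajb9 differed most (1.40 ± 0.23, 2.64-fold, adjusted p = 0.0021), followed by Herpud1 (1.02 ± 0.16, adjusted p = 0.0019). Pdia4 differed by 0.95 ± 0.10 (adjusted p = 1.9e-04), Sel1l by 0.95 ± 0.14 (adjusted p = 0.0014), Sdf2l1 by 0.85 ± 0.18 (adjusted p = 0.0075) and Selenos by 0.81 ± 0.17 (adjusted p = 0.0073). The chaperones called higher were Hsp90b1 (0.79, adjusted p = 0.011), Hyou1 (0.72, 0.02), Hspa5 (0.57, 0.013) and Canx (0.54, 0.019). Differences of 0.36 to 0.72 were called for Dnajc3, Xbp1, Ero1l, Erp44, P4hb, Derl1, Sec24d, Syvn1, Wfs1, Atf6, Pdia6 and Pdia3. The ΔN-VEGF samples all lay above the wild-type samples for 29 of 37 members, as they did for 29.7% of all tested genes. Of these 29, 7 did not pass the test: Calr (0.68, adjusted p = 0.078), Manf (0.49, 0.076), Ero1lb (0.45, 0.12), Dnajb11 (0.39, 0.22), Txndc5 (0.32, 0.082), Pdia5 (0.24, 0.23) and Derl2 (0.10, 0.51). Edem2 was the only member with a negative estimate (-0.07 ± 0.22, adjusted p = 0.87). The count of 22 was 13 under total-count scaling, where 4.57% of all genes were higher and 22.2% lower. It was 14 without both hypoxic samples numbered 2, where 3.21% of all genes were higher, and also 14 without sample 2 of wild-type hypoxia (7.18%) or without sample 3 of ΔN-VEGF hypoxia (5.85%). It was 29 in a fit of the 6 hypoxic samples alone, where 27.9% of all genes were higher, and 30 without both normoxic samples numbered 2, where 27.5% of all genes were higher. The calls of Pdia4, P4hb, Erp44, Dnajb9, Dnajc3, Sdf2l1, Herpud1, Sel1l and Sec24d held in each of 21 alternative fits. Those of Hspa5, Hsp90b1, Canx, Hyou1, Pdia3, Pdia6, Xbp1 and Wfs1 were lost when single hypoxic samples were left out, Hspa5 reaching at most an adjusted p of 0.063 and Hsp90b1 0.064 over the alternatives. The calls of Ero1l, Derl1, Syvn1, Atf6 and Selenos are not counted among those that held in every fit. With 1 sample left out at a time, the median over the members was 0.46 to 0.56.

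**Figure D3:**
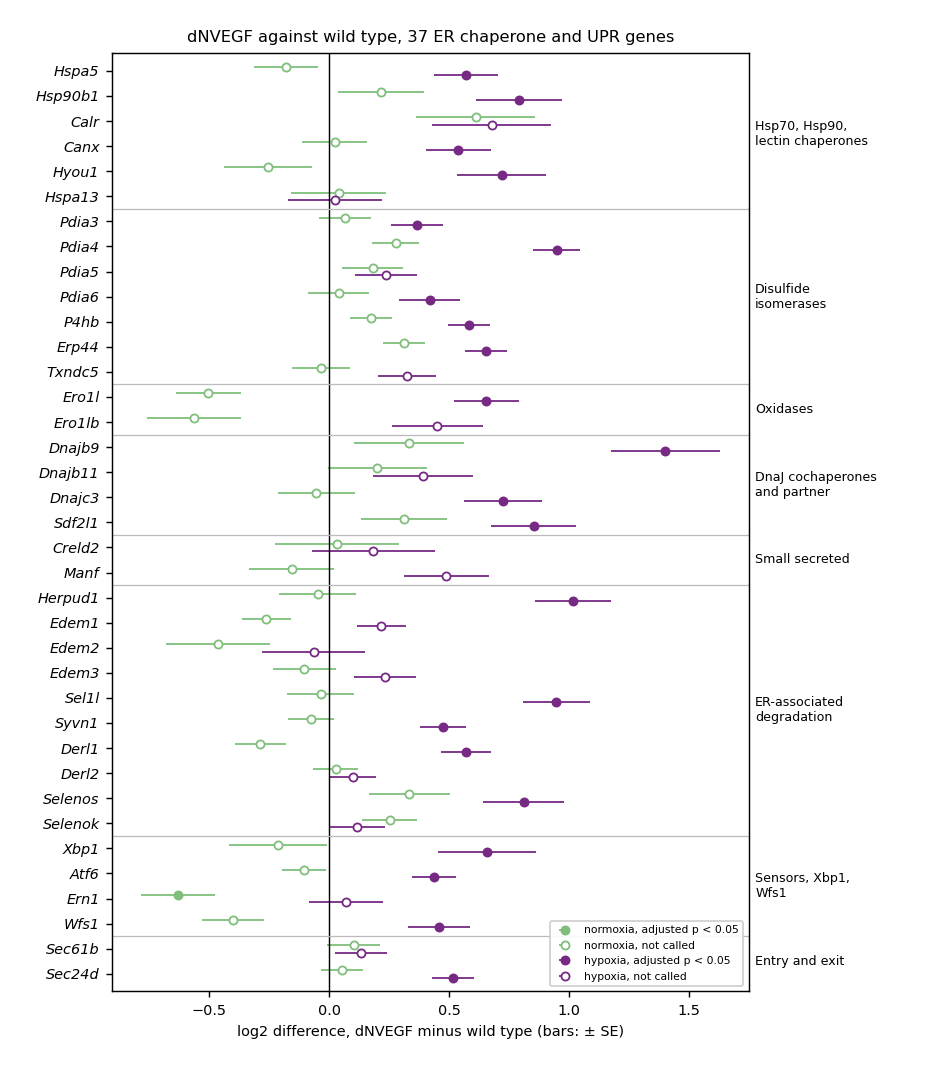
Log2 difference between ΔN-VEGF and wild-type cells for 37 ER genes (x axis, ± SE), in normoxia (green) and hypoxia (purple); filled points passed an adjusted p below 0.05. Normoxic points scatter around 0 with a median of 0.02, and hypoxic points lie mostly right of 0, up to 1.40 for Dnajb9.

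The sizes of the responses were compared in the same model. The difference between the hypoxia responses, ΔN-VEGF minus wild type, was called for 7 of 37 members, all higher in ΔN-VEGF cells, where 2.21% of all tested genes were called higher and 1.15% lower. At an unadjusted p below 0.05, 22 members were higher and 0 lower, among 12.7% and 8.34% of all tested genes. DESeq2 called 19 and 0, among 7.21% and 3.47% of its genes. The 7 were Ero1l (1.16 ± 0.19, adjusted p = 0.013), Derl1 (0.86 ± 0.15, 0.016), Sel1l (0.98 ± 0.20, 0.028), Pdia4 (0.67 ± 0.14, 0.029), Herpud1 (1.07 ± 0.23, 0.032), Wfs1 (0.86 ± 0.18, 0.032) and Atf6 (0.54 ± 0.13, 0.047). For Ero1l both the lower level in normoxia and the higher level in hypoxia enter this difference. Syvn1 (0.55, adjusted p = 0.052) and Hspa5 (0.75, adjusted p = 0.055) came just short of the threshold. The estimate was above 0 for 35 of 37 members, with a median of 0.52 against 0.03 over all tested genes. The number of calls rested on single samples: it was 21 without sample 2 of wild-type normoxia (where 21.4% of all genes were called higher and 23% lower), 28 without both normoxic samples numbered 2 (where 25.8% of all genes were called higher and 27.0% lower), and 0 without sample 1 or without sample 3 of ΔN-VEGF hypoxia or without both hypoxic samples numbered 2, where the shares of all genes called higher were 0.342%, 0.409% and 0.0857%. With 1 sample left out at a time, the median over the members was 0.43 to 0.57. Total-count scaling, which moved the median of all genes to -0.15, left 1 call, that of Ero1l, among 0.998% of all genes higher and 5.13% lower, and a median of 0.33 over the members. Over 20 alternative fits Ero1l kept its call in 17 and Derl1 in 12, and the other 5 in 6 to 9 each. With all 12 samples the estimates nearest 0 were those of Sec61b (0.03 ± 0.15), Hspa13 (-0.01 ± 0.28), Pdia5 (0.06 ± 0.18), Calr (0.07 ± 0.35) and Derl2 (0.07 ± 0.13). That of Calr rested on sample 2 of wild-type normoxia, without which it was -0.39 (adjusted p = 0.063); without both normoxic samples numbered 2 it was -0.22 (adjusted p = 0.032), a smaller response in ΔN-VEGF cells. These members are not shown to respond alike, since an estimate within 2 SE of 0 leaves room for a difference.

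Within groups, sample 2 differed from samples 1 and 3 in these genes. In ΔN-VEGF hypoxia sample 2 was the lowest of the 3 for 36 of 37 members, as it was for 33.4% of all tested genes, with a median log2 gap to the mean of the other two of -0.22. In wild-type hypoxia it was the lowest for 21 members (41.9% of all genes, median gap -0.09) and the highest for 10 (41.1%). In ΔN-VEGF normoxia it was the highest for 29 members (46.7% of all genes, median gap 0.23) and the lowest for 5 (40.5%). In wild-type normoxia it was the highest for 23 (47.1%, median gap 0.10) and the lowest for 13 (45.8%). Leaving out both hypoxic samples numbered 2 left 32 members called higher in hypoxia in wild type and 34 in the ΔN-VEGF line, and leaving out both normoxic samples numbered 2 left 35 and 36. What sets these samples apart was not tested.

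Beyond the members, 21 genes of the translocon, signal peptidase and oligosaccharyltransferase, through which new chains enter the ER and receive their glycans, were compared. In each line 18 of the 21 rose and 0 fell, at an adjusted or an unadjusted p below 0.05 and by DESeq2, with median differences of 0.75 in wild type and 0.94 in the ΔN-VEGF line. The shares of all tested genes that rose were 18.2% and 26.9%. Spcs2, a signal peptidase subunit, rose by 1.09 ± 0.09 (adjusted p = 5.5e-06) and 1.39 ± 0.09 (adjusted p = 4.7e-07). Sec61g, a small translocon subunit, rose by 1.34 ± 0.14 (adjusted p = 3.2e-05) and 1.42 ± 0.14 (adjusted p = 1.1e-05). Stt3b, a catalytic subunit of the oligosaccharyltransferase, rose by 1.13 ± 0.13 (adjusted p = 5.8e-05) and 1.39 ± 0.13 (adjusted p = 7.3e-06). Between the lines in hypoxia 4 of the 21 were higher in ΔN-VEGF cells (10 at an unadjusted p below 0.05 and 7 by DESeq2), where 10.8% of all tested genes were higher (16.8% and 12%).

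Of 12 glucosidases, glycan lectins and KDEL receptors, which check glycoproteins and return escaped ER proteins, 5 rose and 1 fell in hypoxic wild-type cells. In the ΔN-VEGF line 8 rose and 0 fell (also 0 at an unadjusted p below 0.05 and by DESeq2). Of all tested genes, 18.2% were higher and 18.3% lower in wild type, and 26.9% and 26.4% in the ΔN-VEGF line. The KDEL receptors Kdelr3 and Kdelr2 rose in both lines. Kdelr3 went from 34.3, 29.2 and 33.6 to 128, 131 and 123 CPM in wild-type cells (1.98 ± 0.09, adjusted p = 5.0e-08) and rose by 2.39 ± 0.09 (adjusted p = 7.7e-09) in ΔN-VEGF cells. Kdelr2 rose by 1.20 ± 0.14 (adjusted p = 7.8e-05) and 1.56 ± 0.14 (adjusted p = 6.4e-06). Uggt1, the folding sensor that puts a glucose back on unfolded glycoproteins, was the gene that fell in wild-type cells (-0.30 ± 0.09, adjusted p = 0.025), a call lost without any 1 of the 3 hypoxic wild-type samples (adjusted p up to 0.11 over the alternatives); in ΔN-VEGF cells it was at -0.09 ± 0.09 (adjusted p = 0.43), and under total-count scaling at -0.49 (adjusted p = 3.9e-04).

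The PERK and ATF4 arm, of which 10 of 11 listed genes were tested, rose in 9 cases in each line, with 0 falls (also 0 at an unadjusted p below 0.05 and by DESeq2), against 18.2% of all tested genes higher in wild type and 26.9% in the ΔN-VEGF line. Atf3 was not tested, at 0 to 0.104 CPM in the 12 samples. Ddit3 encodes CHOP, a transcription factor linked to cell death under ER stress. It has a pair of rows in the table, of which 1 held no counts in any sample, and the other measured 35.6, 12.3 and 32.0 CPM in wild-type normoxia and 163, 148 and 154 CPM in wild-type hypoxia (2.54 ± 0.30, adjusted p = 7.1e-05). In the ΔN-VEGF line it measured 14.1, 13.3 and 14.3 CPM in normoxia and 301, 276 and 282 CPM in hypoxia (4.37 ± 0.32, adjusted p = 1.2e-06). The hypoxic ΔN-VEGF samples lay above all others. Ppp1r15a encodes GADD34, which undoes the block on translation, and it rose from the range of 29.1 to 49.9 to that of 199 to 204 CPM in wild-type cells and from the range of 33.1 to 39.1 to that of 380.3 to 388 CPM in ΔN-VEGF cells (2.26 ± 0.17 and 3.44 ± 0.18, adjusted p = 2.8e-06 and 9.9e-08). Sesn2, a stress-induced inhibitor of mTORC1, rose by 1.70 ± 0.12 (adjusted p = 1.7e-06) and 2.97 ± 0.12 (adjusted p = 2.4e-08). The difference between the responses was called for 4 of the 10: Ddit3 (1.83 ± 0.40, adjusted p = 0.037), Sesn2 (1.27 ± 0.17, 0.0048), Ppp1r15a (1.18 ± 0.23, 0.027) and Asns, asparagine synthetase (0.66 ± 0.10, 0.009), where 2.21% of all tested genes were called higher. Sesn2 kept this call in 19 of 20 alternative fits and Asns in 15, while Ddit3 kept it in 7 and Ppp1r15a in 8.

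**Figure D4:**
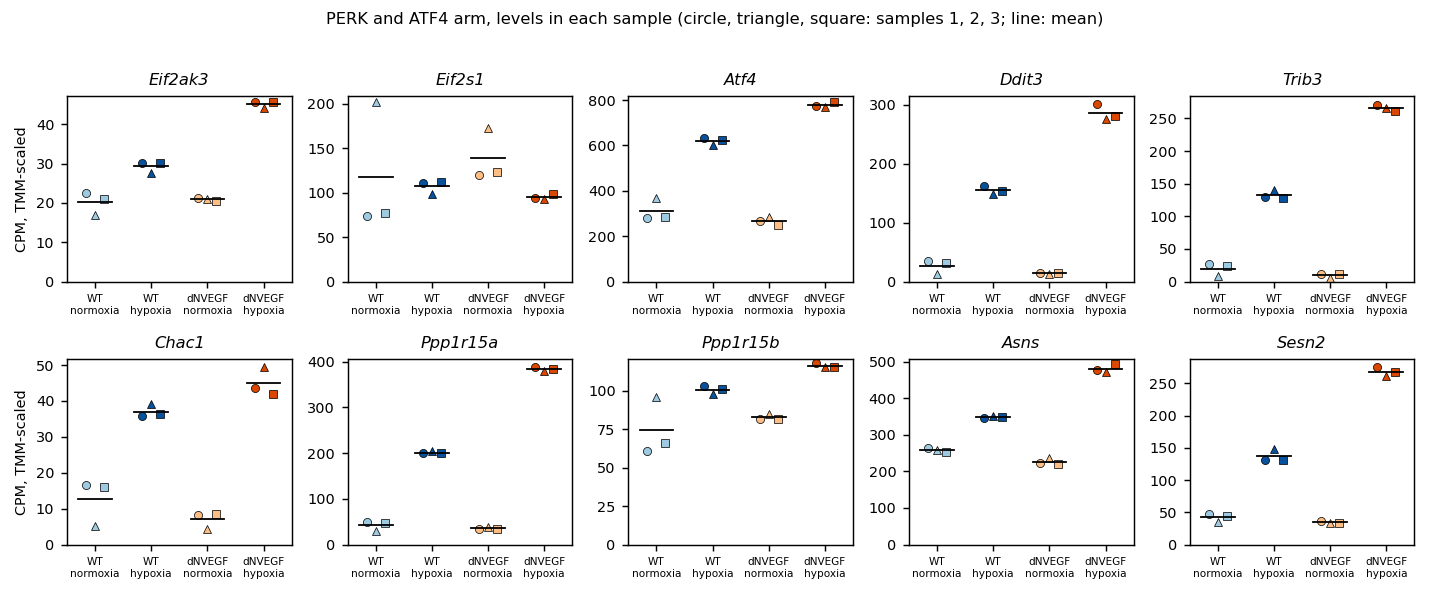
Level of the 10 tested PERK and ATF4 arm genes in each of the 12 samples (y axis, TMM-scaled CPM from 0; circles, triangles and squares are samples 1, 2 and 3, lines are means). Hypoxic points lie above normoxic ones in both lines for Ddit3, Trib3, Ppp1r15a and Sesn2, and for Ddit3 the hypoxic ΔN-VEGF samples reach 301 CPM against 163 CPM in the highest wild-type sample.

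Further ER stress transducers and proteases gave a mixed picture, with 1 of 6 higher and 3 lower in wild-type cells, and 2 higher and 2 lower in ΔN-VEGF cells, where all tested genes gave 18.2% and 18.3%, and 26.9% and 26.4%. Creb3, an ATF6-like membrane-bound factor, rose by 0.74 ± 0.10 (adjusted p = 2.5e-04) and 0.90 ± 0.10 (adjusted p = 3.7e-05), and Creb3l2, of the same family, rose by 1.46 ± 0.18 (adjusted p = 5.0e-05) in ΔN-VEGF cells and was at 0.48 ± 0.17 (adjusted p = 0.052) in wild-type cells, where it was called without any 1 of the 3 normoxic samples (0.26 without sample 2 and 0.60 without sample 1 or 3). Mbtps1 and Mbtps2 encode the site-1 and site-2 proteases that cut ATF6. Mbtps2 fell in both lines (-0.63 ± 0.11 and -0.39 ± 0.12, adjusted p = 0.0013 and 0.014). In the ΔN-VEGF line the call was lost without hypoxic sample 1 (adjusted p = 0.051), while the estimate lay between -0.79 and -0.35 over 21 alternatives. Mbtps1 fell in wild-type cells (-0.42 ± 0.09, adjusted p = 0.0034) and was at -0.01 ± 0.09 (adjusted p = 0.96) in ΔN-VEGF cells, where total-count scaling gave a called fall (-0.41, adjusted p = 0.01). Atf6b, the second ATF6, fell in both lines (-0.81 ± 0.23 and -1.16 ± 0.23, adjusted p = 0.017 and 0.0014), though in wild type the call was lost without hypoxic sample 1 or 3 (adjusted p up to 0.072 over the alternatives). The wild-type value rested on normoxic sample 2 (88.8, 169 and 84.8 CPM in samples 1, 2 and 3), and without it was -0.41, still called.

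Of 6 transcripts known to be cut by IRE1 in other settings, 2 rose and 3 fell under hypoxia in wild type, while the ΔN-VEGF line had 3 rises and 2 falls. The shares of all tested genes stand at 18.2% higher and 18.3% lower in wild type and 26.9% and 26.4% in the ΔN-VEGF line, and nothing is read from counts in so short a list. Scara3, a scavenger receptor, went from 122, 84.8 and 122 to 46.9, 46.8 and 46.2 CPM in wild-type cells (-1.23 ± 0.15, adjusted p = 8.5e-05) and fell in ΔN-VEGF cells too (-1.28 ± 0.15, adjusted p = 3.7e-05). Pdgfrb, a growth factor receptor that is also on the fibroblast list, fell in both lines (-1.94 ± 0.26 and -1.44 ± 0.26, adjusted p = 1.9e-04 and 7.5e-04). Bloc1s1, the transcript most widely reported as an IRE1 target, was higher in hypoxia in both lines (0.41 ± 0.12 and 0.57 ± 0.12, adjusted p = 0.018 and 0.0019). Total-count scaling ended both of these calls (adjusted p = 0.18 and 0.21), and that in wild type was also lost without normoxic sample 1 or without hypoxic sample 1 or 2. Sparc, an abundant matrix glycoprotein, rose as well (0.77 ± 0.09 and 0.87 ± 0.09, adjusted p = 9.6e-05 and 2.2e-05).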

How the data were processed

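RNA of the 12 samples had been sequenced by the authors as single 80-base reads from libraries that do not mark strand, trimmed with Trim Galore and cutadapt 1.10, aligned to GRCm38.p6 with TopHat2 2.1.0 and counted per gene with HTSeq 0.6.1, whose strand setting is not given in the sources used here. The deposited values are whole raw counts per gene, not normalized. Groups were taken from the labels, with 3 samples each. Genes kept by filterByExpr (14724 of 54446) were scaled by TMM and tested with edgeR 4.0.16 (R 4.3.3; limma 3.58.1), glmQLFit and glmQLFTest, with 1 mean per group over all 12 samples and Benjamini-Hochberg adjustment; a call was an adjusted p under 0.05. The SE is the size of the log2 difference divided by the root of F. The authors' own test was DESeq2, which was run here (version 1.42.0) as an alternative. Members and gene lists were chosen with earlier results of these data known. All members are named. From each other list, up to 2 rises and 2 falls with the smallest adjusted p in each hypoxia response are named, with every gene called in the difference between the responses, and Vegfa as the edited gene. Of the pair of rows for Ddit3, that with more counts was used. Total counts were 30519052 to 43056690 per sample; same-group samples differed by a chi-square of 2.86 to 358 per gene, where sampling noise alone gives about 1. Simulated data gave 74% of 200 genes changed 2-fold back in the wild-type comparison, with 9 false calls among 14443 genes. DESeq2 gave 87.5% back there with 43 false calls among 14724 genes, and in the 3 comparisons simulated with no change it made 5 to 7 false calls where edgeR made 0. The simulated counts were drawn with edgeR's own estimates of spread and held no sample that stood apart. They do not show how either tool treats such a sample. Alternatives were other scalings and filters, DESeq2, a fold of at least 2, a replicate block, fits of 6 samples, and leaving out single samples or both samples numbered 2 of an oxygen condition (the hypoxic pair added after seeing the data). Same-numbered samples of the lines correlated at 0.54, 0.60 and 0.53 in normoxia in their deviations from the group means. The main fit holds no pairing, and the fit with the number as a block is given beside it as an alternative. In the other comparisons at least 1 of the 3 correlations was 0.1 or lower. Promoter windows and motifs came from RefSeq on GRCm38.p6, and exon lengths and overlaps from GENCODE M21.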

Additional observations from a re-analysis of the deposited data

Results flagged for a closer look

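For 12 genes of the members and other lists the response to hypoxia differed in size between the lines, by the test of that difference in the edgeR model (ΔN-VEGF minus wild type, log2, n = 3 samples in each group). They were 7 of 37 tested members, 4 of 10 tested genes of the PERK and ATF4 arm and 1 of 8 hypoxia check genes, with 0 in the other lists. Of all 14724 tested genes, 326 (2.21%) were called higher and 169 (1.15%) lower. Among the ER genes these were Ero1l at 1.16 (adjusted p = 0.013), Herpud1 at 1.07 (0.032), Sel1l at 0.98 (0.028), Wfs1 at 0.86 (0.032), Derl1 at 0.86 (0.016), Pdia4 at 0.67 (0.029) and Atf6 at 0.54 (0.047). In the PERK and ATF4 arm they were Ddit3 at 1.83 (adjusted p = 0.037), Sesn2 at 1.27 (0.0048), Ppp1r15a at 1.18 (0.027) and Asns at 0.66 (0.009). Vegfa, the edited gene, differed by 1.57 (adjusted p = 0.028), from a rise of 2.01 in the wild-type line and of 3.59 in the ΔN-VEGF line. For Ddit3, wild-type normoxic sample 2 (35.6, 12.3 and 32.0 CPM in samples 1, 2 and 3) lay near the ΔN-VEGF normoxic samples (14.1, 13.3 and 14.3 CPM), and the same held for Vegfa (86.2, 39.4 and 82.6 against 37.3, 34.2 and 35.5 CPM). Over 20 alternative fits Sesn2 kept its call in 19, Ero1l in 17, Asns in 15 and Derl1 in 12, and the other 8 in 6 to 9 each.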

How the results depend on the processing

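The rise of the ER genes in hypoxia held under every alternative run, with 31 to 35 members higher in wild-type and 31 to 36 in ΔN-VEGF cells, apart from a condition of at least 2-fold, which left 21 and 30. Comparisons between the lines moved more. With DESeq2, 1 member was higher and 2 lower in normoxia, and 19 responses were larger in ΔN-VEGF cells. Total-count scaling gave 1 member lower in wild-type hypoxia, 0 lower in normoxia between the lines, 13 higher in hypoxia and 1 larger response. Without the filter on low counts the counts were 0 lower in normoxia and 4 larger responses, and with at least 10 counts in every sample 11 larger responses. The 2-fold condition left 0 lower in normoxia, 2 higher in hypoxia and 2 larger responses. A fit of the 6 normoxic samples alone gave 0 lower. Without both normoxic samples numbered 2, 2 members (Ern1 and Edem3) were lower in wild-type hypoxia, 10 were higher and 9 lower between the lines in normoxia, and 28 responses were larger and 1 smaller in ΔN-VEGF cells. The smaller one was that of Calr, at -0.22 (adjusted p = 0.032), where the estimate over all samples was 0.07. Without both hypoxic samples numbered 2, a setting added after seeing the data, the counts were 0 lower in normoxia, 14 higher in hypoxia and 0 larger responses. Leaving out 1 sample at a time gave 0 to 1 members lower in wild-type hypoxia, 0 to 10 higher and 0 to 9 lower in normoxia, 14 to 27 higher in hypoxia, and 0 to 21 larger responses, with 10, 9, 27 and 21 reached without sample 2 of wild-type normoxia. The cause was not tested.

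With the replicate number as a block, 32, 35, 0, 22 and 7 members were called higher in the wild-type response, the ΔN-VEGF response, the lines in normoxia, the lines in hypoxia and the difference between responses, among 19.7%, 28%, 1.55%, 11.6% and 2.15% of all genes. The block ended the calls of Ern1 in normoxia and of Pdia6 in hypoxia (0.42, adjusted p = 0.053) and added those of Ero1l in normoxia, of Dnajb11 in the ΔN-VEGF response (0.54, adjusted p = 0.045) and of Txndc5 between the lines in hypoxia (0.33, adjusted p = 0.043); it changed no other call on a member.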
